A study of Mus musculus with 8 samples.

Results

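The proteasome subunit genes were taken as every protein-coding gene whose mouse symbol starts with Psm, a letter from a to g and a number. This rule found 50 of the 55401 genes counted in RNA-seq of mouse embryonic stem cells (ESCs). Of these, 19 encode the 20S core, 17 the 19S cap and 13 the activators and assembly chaperones. The remaining gene, Psmc3ip, encodes a meiotic recombination factor that was named for binding a 19S subunit and is not a subunit itself. The groups compared were Control (2 libraries), Zzz3 auxin (3 libraries) and Yeats2 auxin (3 libraries). ZZZ3 and YEATS2 are subunits of the ATAC coactivator complex. Each auxin group came from a line in which the named protein carried an auxin-inducible degron, and it received 500 µM auxin for 24 h. In the presence of auxin the plant F-box protein Tir1, for which the cells were kept under G418 selection, joins a cellular SCF ubiquitin ligase and sends the tagged protein to the proteasome. All cells grew in serum medium with LIF and both 2i inhibitors. The labels do not name the parental line or the treatment of the controls, so the AID tag, auxin and the loss of the protein cannot be told apart. The labels do not say whether the libraries of a group came from separate cultures, so p-values measure only the spread between these libraries.

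The 26S proteasome degrades proteins that carry ubiquitin chains. Its barrel, the 20S core, stacks rings of alpha subunits, which gate the entrance, and rings of beta subunits, of which PSMB5, PSMB6 and PSMB7 cut peptide bonds. The 19S cap recognises the ubiquitin chain, removes it and feeds the unfolded substrate into the core through a ring of PSMC ATPases. The transcription factor NRF1, encoded by Nfe2l1, is known to raise the subunit genes together when the proteasome is inhibited, through antioxidant response elements in their promoters.

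The libraries held between 14315120 and 27884704 reads in genes, the fewest in Zzz3 auxin replicate 3. Zzz3 mRNA itself fell in the Zzz3 auxin libraries, from 186 and 182 CPM (TMM-scaled counts per 1000000 reads in genes) in the controls to 77.5, 96.9 and 112 CPM (edgeR adjusted p = 0.0187). Yeats2 mRNA was 77.3, 103 and 43.7 CPM in the Yeats2 auxin libraries against 90.9 and 95.8 CPM in the controls (edgeR adjusted p = 0.605), and the degron acts on the protein. Of the 8 ESC markers examined, all passed the filter on low counts, while the 6 fibroblast markers summed to at most 2.23 CPM in any library. In bulk RNA, fewer cells of a type and less RNA per cell cannot be told apart.

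Proteasome genes were expressed over a wide range of levels (CPM per kb of exon, as the median over the 8 libraries). The 48 members that passed the filter on low counts had levels from 0.0944 to 223 CPM per kb, with a median of 63.6 in the 20S core, 84.7 in the 19S cap and 18.3 among activators and chaperones. Psma6, an alpha ring subunit, headed the core at 223 CPM per kb, and the ATPase gene Psmc5 headed the cap at 213. These 2 levels overlapped across groups, since the group means of Psma6 ran from 185 ± 31.6 (SD, n = 3, Zzz3 auxin) to 259 ± 24.1 (n = 2, Control) and those of Psmc5 from 186 ± 43.1 (n = 3, Zzz3 auxin) to 231 ± 21.7 (n = 3, Yeats2 auxin). Psme4, which encodes the PA200 activator, stood at 110 CPM per kb, far above the interferon-inducible 11S activator genes Psme1 (15.2) and Psme2 (9.06).

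**Figure D1:**
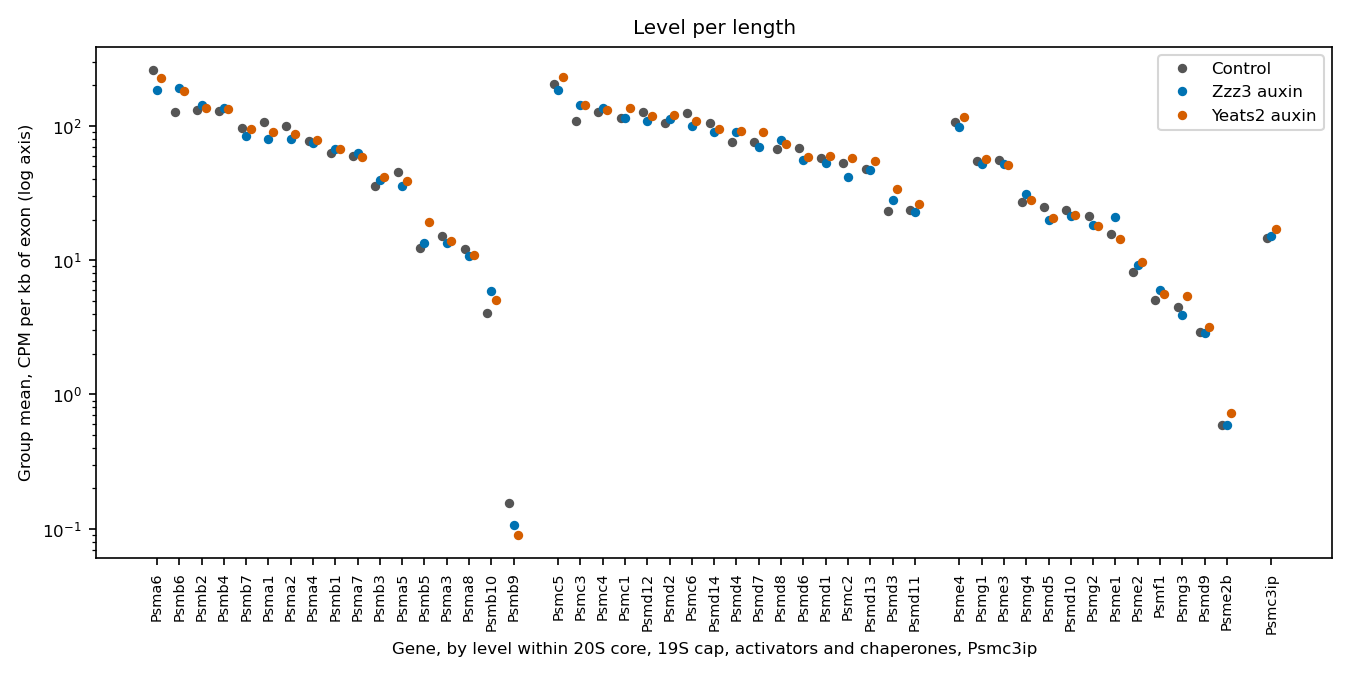
Level of the 48 members tested, as the group mean in CPM per kb of exon on a log axis, ordered by the median over libraries within the 20S core, the 19S cap and the activators and chaperones, with Psmc3ip last. Within the core the range runs from Psma6 (median 223) to the immunoproteasome gene Psmb9 (0.0944), whereas the cap spans 24.4 to 213.

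The catalytic subunits did not have equal levels. Psmb6 (caspase-like site) had 166 CPM per kb and Psmb7 (trypsin-like site) had 93.8, but Psmb5 (chymotrypsin-like site) had only 16.2. The submitters' counting left out reads that aligned to more than 1 place, which made up 45.6% to 51.7% of the records of a library. Of the 50-base stretches of the longest coding transcript of Psmb5, 57.1% also occurred in another annotated gene, mainly the processed pseudogene Gm3375. The same share was 0% for Psma6, 2.67% for Psmb6 and 28.1% for Psmb7, the last with the overlapping gene Nek6. It was 55.8% for Psmb3, 55.4% for Psma5, 59.3% for Psme2 and 69.3% for its near copy Psme2b. The levels of Psmb5, Psmb3, Psma5, Psme2 and Psme2b are therefore uncertain. Nek6 overlaps Psmb7 on the opposite strand of the same locus, where a shared stretch need not align to more than 1 place. The shared stretches are the same in every library.

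Of the genes known from other tissues or from interferon-treated cells, most had few reads. Psmb8, an interferon-inducible catalytic subunit, had 3 reads over all 8 libraries, and Psmb11, the thymus-specific one, had 4; neither passed the filter. Psmb9, a further interferon-inducible catalytic subunit, had 0.309 to 0.691 CPM. Psmb10, its trypsin-like counterpart, had 5.33 to 11.8 CPM. Psma8, the alpha subunit of the testis, was measured at 23.5 to 31.1 CPM. Per kb of length its median level was 11.3 CPM, beside 58.6 for Psma7 and a median of 74.9 for the alpha ring. It was also below the lowest genes of the alpha ring, Psma3 (14.1), and of the constitutive beta ring, Psmb5 (16.2). Of the 50-base stretches of these 2 genes, 22% and 57.1% also occurred in other genes.

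No proteasome gene passed the test in any comparison. The test was edgeR's quasi-likelihood test over 17532 genes with Benjamini-Hochberg adjustment, and genes with an adjusted p under 0.05 are called here. In Zzz3 auxin against Control, 0 of 48 members were called, beside 0.753% of all genes, and the smallest edgeR adjusted p among the members was 0.0988. In Yeats2 auxin against Control, 0 of 48 were called, beside 0.445% of all genes, with a smallest edgeR adjusted p of 0.13. Between the 2 depletions, 0 of 48 members and 0% of all genes were called. DESeq2 called 1 member in each comparison with Control, Psma6 (lower, adjusted p = 0.048) after ZZZ3 depletion and Psmd3 (higher, adjusted p = 0.0312) after YEATS2 depletion, beside 6.3% and 2.38% of all genes, and none between the depletions.

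At an unadjusted edgeR p under 0.05, 2 members were higher and 7 lower in Zzz3 auxin, where 11.6% and 10.1% of all genes were. The 7 lower members are 14.6% of the 48. In Yeats2 auxin 3 members were higher and 0 lower, against 7.65% and 6.98% of all genes. Between the depletions 2 were higher and 1 lower in Yeats2 auxin, against 2.44% and 3.81%.

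The members had a median log2 fold change of -0.04 after ZZZ3 depletion and 0.06 after YEATS2 depletion, where the median of all genes was 0.01 and -0.01. By component, the medians in Zzz3 auxin were -0.03 for the core, -0.04 for the cap and -0.08 for activators and chaperones. In Yeats2 auxin they were -0.02, 0.15 and 0.07. The median standard error of a single member was 0.14, and the 95% interval of 44 members in Zzz3 auxin and 45 in Yeats2 auxin lay within 1 log2 unit of no change. The plot of fold changes with their intervals shows that the wide ones belong to weakly expressed genes and to genes with 1 deviating library.

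**Figure D2:**
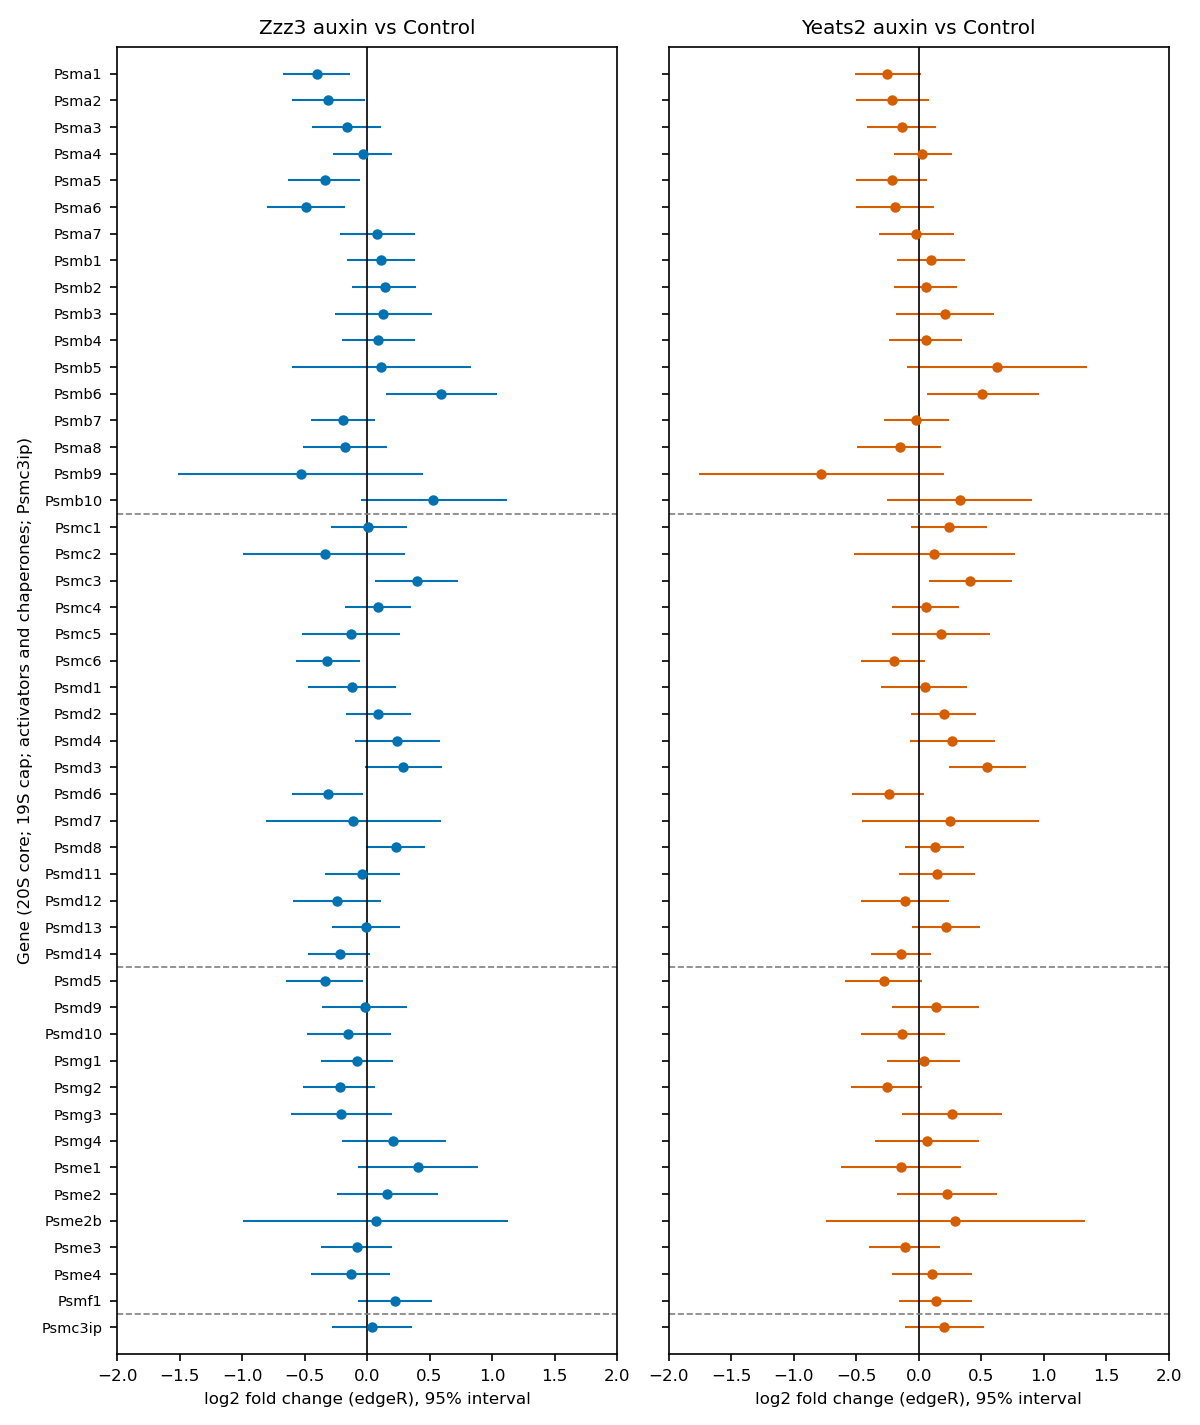
The log2 fold change of each member tested (edgeR, x axis) with its 95% interval, for Zzz3 auxin (left) and Yeats2 auxin (right) against Control; dashed lines part the 20S core, the 19S cap, the activators and chaperones, and Psmc3ip. Psma6 (-0.49) and Psmb6 (0.59) have intervals that leave out 0 in Zzz3 auxin, and Psmd3 (0.55) and Psmb6 (0.51) in Yeats2 auxin, but no member is called after adjustment.

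Within the core, the alpha ring genes mostly had lower values after depletion, none of them called. In Zzz3 auxin 6 of its 7 genes had a negative log2 fold change, with a median of -0.31 for the ring, and in all 6 every Zzz3 auxin library lay below both controls. For Psma4 the gap was slight, at 177.42 CPM in the highest Zzz3 auxin library and 177.62 CPM in the lower control (log2 fold change -0.03). Over all members 12 of 48 (25%) lay below without overlap and 5 above, beside 18.9% and 16.8% of all genes. Psma6 was measured at 341 and 299 CPM in the control pair, 198, 272 and 214 CPM after ZZZ3 depletion and 279, 295 and 267 CPM after YEATS2 depletion. Every auxin library was below both controls, most clearly Zzz3 auxin replicates 1 and 3. Against Control the ZZZ3 value was a log2 fold change of -0.49 (SE 0.14, edgeR adjusted p = 0.0988). Without Zzz3 auxin replicate 2 it was -0.63 with an edgeR adjusted p of 0.0333, which is a call. That fit called 841 genes in all, against 132 in the main fit. Without Zzz3 auxin replicate 1 it was -0.38 (edgeR adjusted p = 0.229), and without replicate 3 it was -0.43 (edgeR adjusted p = 0.127). Without Control replicate 1 it was -0.39, and without Control replicate 2 it was -0.57. Psma1, another alpha subunit, had 326 and 301 CPM in the control pair, 213, 262 and 236 CPM after ZZZ3 depletion and 249, 283 and 261 CPM after YEATS2 depletion. Neither auxin group overlapped the controls, with log2 fold changes of -0.40 (SE 0.12, edgeR adjusted p = 0.105) and -0.25 (SE 0.12, edgeR adjusted p = 0.368).

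Among the other alpha genes, Psma2 and Psma5, chosen after their values were seen, had log2 fold changes of -0.31 and -0.34 after ZZZ3 depletion and -0.21 each after YEATS2 depletion. After correction for GC content and length, described at the end, Psma2 had -0.07 and -0.01 and Psma5 -0.27 and -0.17. Psma7, also of the alpha ring, had 166 and 198 CPM in the control pair, 176, 183 and 215 CPM after ZZZ3 depletion and 173, 200 and 164 CPM after YEATS2 depletion, and the groups overlapped. Its log2 fold changes were 0.08 and -0.02 as fitted and -0.23 in both depletions after that correction, whereas in Zzz3 auxin Psma3 and Psma4 went from -0.16 and -0.03 to 0.07 and 0.13. Which alpha genes were lower thus depended on the correction. The summed level of the alpha ring was 1495 and 1466 CPM in the control pair, 1107, 1327 and 1249 CPM after ZZZ3 depletion and 1284, 1436 and 1270 CPM after YEATS2 depletion.

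**Figure D3:**
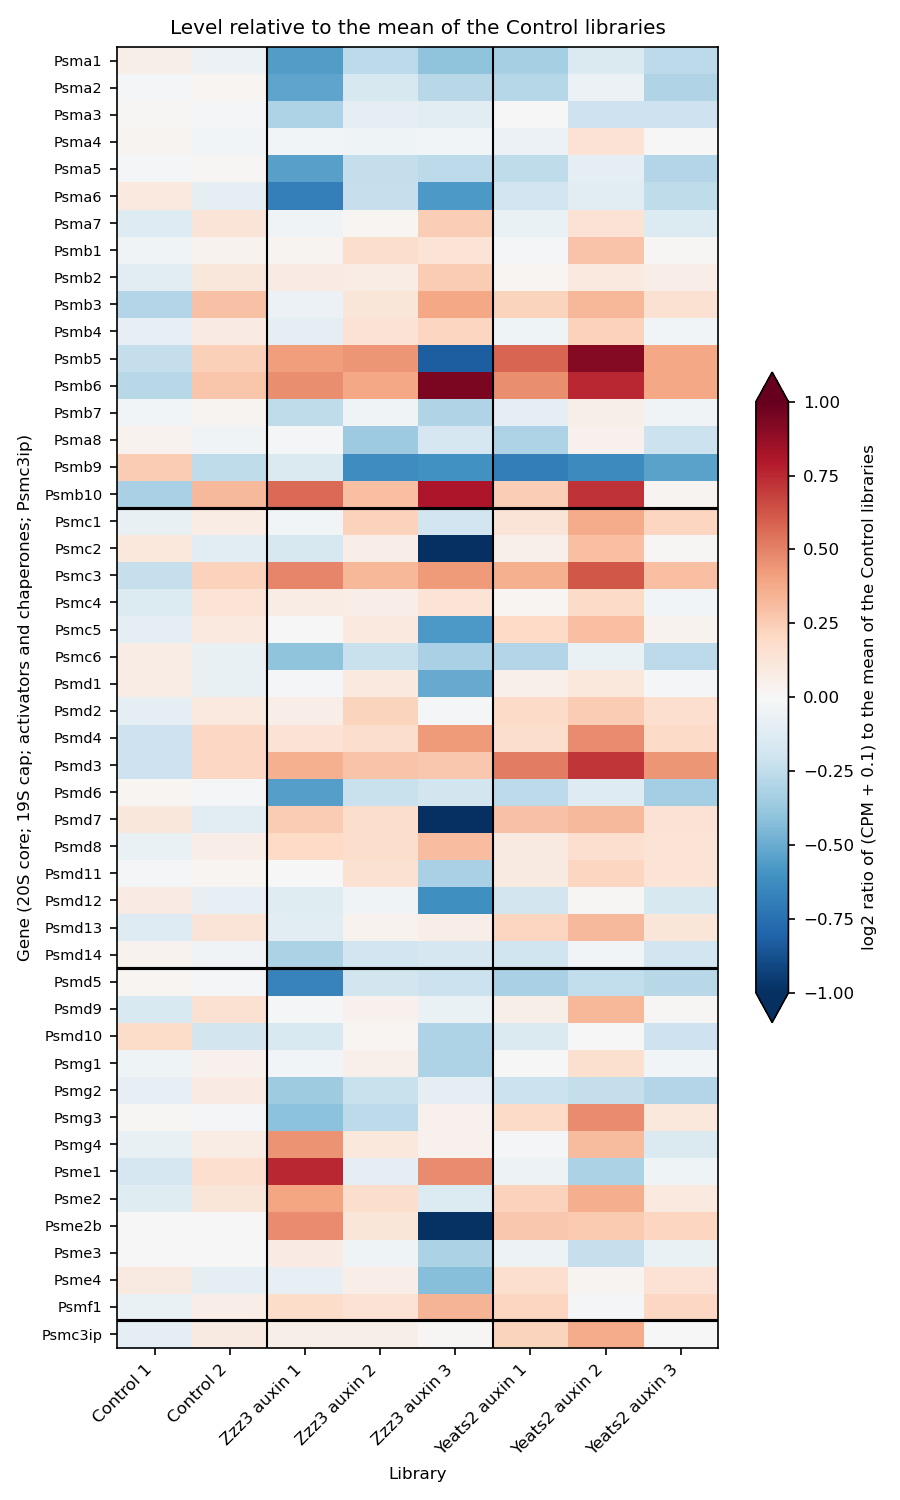
Each row is a member tested and each column a library; colour is the log2 ratio of CPM plus 0.1 to the mean of the Control libraries, cut at 1 in either direction. Psma1, Psma2, Psma5 and Psma6 are blue in all auxin libraries, Psmb6 is red in them, and Psmc2, Psmd7 and Psme2b are dark blue in Zzz3 auxin replicate 3 alone.

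In the constitutive beta ring 6 of the 7 genes had, in each depletion, a positive log2 fold change, with medians of 0.11 in Zzz3 auxin and 0.10 in Yeats2 auxin. Above both controls without overlap were 1 of the 7 after ZZZ3 depletion and 2 after YEATS2 depletion, and 1 was below them after ZZZ3 depletion. These are 14.3%, 28.6% and 14.3% of the ring, beside 16.8%, 19.3% and 18.9% of all genes. By library, the median log2 ratio of the ring to the control mean was -0.11 and 0.11 in the controls, and 3 of the 6 auxin libraries (0.02, 0.02 and 0.06) lay below the higher control. Psmb6 was measured at 191 and 281 CPM in the control pair, 320, 302 and 446 CPM after ZZZ3 depletion and 319, 390 and 302 CPM after YEATS2 depletion. All 6 auxin libraries were above both controls, and Control replicate 1 stood apart at 68% of the next lowest library. The log2 fold change was 0.59 (SE 0.20, edgeR adjusted p = 0.136) in Zzz3 auxin and 0.51 (SE 0.20, edgeR adjusted p = 0.273) in Yeats2 auxin. Without Control replicate 1 the values for Psmb6 were 0.34 and 0.26.

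Psmb5 had 9.33 and 13 CPM in the control pair, 14.7, 15 and 6.16 CPM after ZZZ3 depletion and 16.6, 20.9 and 14.4 CPM after YEATS2 depletion. Its Yeats2 auxin libraries were all above the controls (log2 fold change 0.63, SE 0.33, edgeR adjusted p = 0.391), while Zzz3 auxin replicate 3 was the lowest library of all. Psmb7 was the 1 gene of the ring with negative values, at 323 and 335 CPM in the control pair, 275, 321 and 267 CPM after ZZZ3 depletion and 308, 343 and 321 CPM after YEATS2 depletion. Its Zzz3 auxin libraries all lay below the controls, with a log2 fold change of -0.19 (SE 0.12, edgeR adjusted p = 0.364). After the GC and length correction Psmb7 had 0.04 in Zzz3 auxin and 0.16 in Yeats2 auxin, so its direction turned.

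Alpha and beta subunits are built into the core in equal numbers, and the mRNAs of both rings were therefore set against each other within each library, a measure added after the values were seen. The summed CPM of the constitutive beta genes over that of the alpha genes was 0.833 and 0.991 for the control pair, 1.24, 1.12 and 1.29 with ZZZ3 depleted and 1.11, 1.16 and 1.12 with YEATS2 depleted. All 6 auxin libraries were above both controls, and the 2 controls differed from each other by more than the 3 Yeats2 auxin libraries did. Without Psmb6 the ratio was 0.706 and 0.8 in the controls and 0.857 to 0.955 in the auxin libraries. On values corrected for GC content and length it was 0.89 and 1.00 in the controls and 1.09 to 1.25 in the auxin libraries. The ratio is a description of the libraries and was given no test.

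The promoters of 4 core genes with some of the largest differences are shown for the elements by which proteasome genes are known to be controlled. They are the 100 bases before the RefSeq start site (GRCm38.p6), 5′ to 3′ on the strand of the gene. Psmb6 is at chr11:70525257-70525356 (plus strand), Psmb5 at chr14:54617996-54618095 (minus), Psma6 at chr12:55384122-55384221 (plus) and Psma1 at chr7:114276117-114276216 (minus). Capitals mark TGACNNNGC, the core of the antioxidant response element, in the first 2 and CCAAT, the NF-Y motif, in the last 2.
Psmb6: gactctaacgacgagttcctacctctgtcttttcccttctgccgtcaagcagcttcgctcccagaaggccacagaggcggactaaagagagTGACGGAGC
Psmb5: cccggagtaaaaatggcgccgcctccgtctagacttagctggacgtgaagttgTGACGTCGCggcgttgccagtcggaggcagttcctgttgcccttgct
Psma6: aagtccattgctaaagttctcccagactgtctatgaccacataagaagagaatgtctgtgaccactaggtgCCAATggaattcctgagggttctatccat
Psma1: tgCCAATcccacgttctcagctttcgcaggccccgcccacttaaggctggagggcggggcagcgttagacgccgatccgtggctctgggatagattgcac
RefSeq promoters were given for 42 of the 50 members, each running from 250 bases before to 50 bases after the start, and both strands were searched. TGACNNNGC was found in 6 of the 42 (Psmb5, Psmb6, Psmc6, Psmd9, Psmd12 and Psme4), or 14.3%, beside 14% of all genes with a promoter. CCAAT was found in 35.7% of the members and 41.1% of all genes, and GGAAG, the ETS core, in 90.5% and 73.9%. A match is a run of letters and not a measured binding site. The 6 genes with TGACNNNGC did not share a direction. Their log2 fold changes in Zzz3 auxin were 0.59 (Psmb6), 0.11 (Psmb5), -0.02 (Psmd9), -0.13 (Psme4), -0.24 (Psmd12) and -0.32 (Psmc6). In Yeats2 auxin they were 0.51, 0.63, 0.14, 0.11, -0.11 and -0.20 in the same order. After the GC and length correction the values in Zzz3 auxin ran from -0.18 (Psmd12) to 0.57 (Psmb6), with Psmc6 at -0.04.

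Of the immunoproteasome genes, Psmb9 and Psmb10 could be tested. Psmb10 had 5.33 and 8.39 CPM in the control pair, 9.98, 8.25 and 11.8 CPM after ZZZ3 depletion and 7.97, 11.1 and 6.81 CPM after YEATS2 depletion, and both auxin groups overlapped the controls. Its log2 fold change was 0.53 (SE 0.27, edgeR adjusted p = 0.274) and 0.33 (SE 0.27, edgeR adjusted p = 0.596). In Zzz3 auxin the value of Psmb10 was 0.24 without Control replicate 1, 0.91 without Control replicate 2 and 0.31 after the GC and length correction. In Yeats2 auxin it was 0.04, 0.70 and 0.17. Psmb9 had the most negative value in both comparisons, -0.53 (SE 0.45, edgeR adjusted p = 0.522) and -0.78 (SE 0.45, edgeR adjusted p = 0.444), on 0.691 and 0.454 CPM in the control pair, 0.499, 0.33 and 0.335 CPM after ZZZ3 depletion and 0.309, 0.326 and 0.356 CPM after YEATS2 depletion. Psmb9 lies next to Tap1, the gene of the antigen peptide transporter, on the opposite strand, and their exons overlap by 5.79% of Psmb9. Tap1 rose in both depletions, from 1.48 and 2.00 CPM to 4.14, 4.21 and 5.09 CPM in Zzz3 auxin (log2 fold change 1.35, edgeR adjusted p = 0.0396) and to 4.60, 4.16 and 5.26 CPM in Yeats2 auxin (1.42, edgeR adjusted p = 0.0382). It was the single call among the 7 interferon and antigen presentation genes tested, all of them chosen as a list with earlier results known.

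In the 19S cap 13 of the 17 genes had, in Yeats2 auxin, a positive log2 fold change, and 7 had all 3 libraries above both controls, while 1 had them below. Over all 48 members these counts were 11 above and 9 below, or 22.9% and 18.8%, beside 19.3% and 21% of all genes. Yeats2 auxin replicate 2 stood apart: it was the highest library for 22 of the 48 members, beside 10.5% of all genes, and its cap genes had a median log2 ratio to the control mean of 0.26, against 0.09 and 0.12 in the other Yeats2 auxin libraries. Without it the median log2 fold change was 0.11 for the cap and 0.01 for all members, in place of 0.15 and 0.06. Control replicate 1 was the lowest library for 15 members, 7 of them in the cap, and the lowest for 22.8% of all genes. The part of these libraries in the cap values was not tested. The largest cap value in Yeats2 auxin was that of Psmd3, a scaffold subunit of the lid, with 97.8 and 130 CPM in the control pair, 145, 137 and 136 CPM after ZZZ3 depletion and 161, 186 and 154 CPM after YEATS2 depletion. The groups did not overlap, and Yeats2 auxin also lay above Zzz3 auxin. The log2 fold change of Psmd3 was 0.55 (SE 0.14, edgeR adjusted p = 0.13) in Yeats2 auxin and 0.29 (SE 0.14, edgeR adjusted p = 0.26) in Zzz3 auxin. Without Control replicate 1 the values of Psmd3 were 0.36 and 0.09.

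The ubiquitin receptor Psmd4 had 182 and 242 CPM in the control pair, 232, 237 and 282 CPM after ZZZ3 depletion and 236, 291 and 239 CPM after YEATS2 depletion. The auxin groups overlapped the higher control, with log2 fold changes of 0.24 and 0.27 (SE 0.15 each, edgeR adjusted p = 0.392 and 0.44). Without Control replicate 1 they were 0.05 and 0.08 for Psmd4, and without Control replicate 2 they were 0.47 and 0.50. Psmd14, the deubiquitinase of the lid, had 302 and 289 CPM in the control pair, 238, 258 and 263 CPM after ZZZ3 depletion and 256, 290 and 259 CPM after YEATS2 depletion. Its Zzz3 auxin libraries were all below the controls (log2 fold change -0.22, SE 0.11, edgeR adjusted p = 0.265), but after the GC and length correction Psmd14 had -0.02.

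The 6 ATPase genes of the base ring, whose proteins assemble in equal numbers, spread from -0.34 to 0.40 after ZZZ3 depletion and from -0.20 to 0.41 after YEATS2 depletion. Psmc3, chosen after its values were seen, was at the upper end with 236 and 325 CPM in the control pair, 389, 349 and 372 CPM after ZZZ3 depletion and 355, 427 and 341 CPM after YEATS2 depletion. All auxin libraries were above both controls, and Control replicate 1 was again low, at 72.6% of the next library. The edgeR adjusted p of Psmc3 was 0.168 and 0.246, and without Control replicate 1 its log2 fold changes were 0.18 and 0.20 in place of 0.40 and 0.41. Psmc6, likewise chosen, was at the lower end in Yeats2 auxin (-0.20, SE 0.12, edgeR adjusted p = 0.445), a value that turned to 0.03 after the GC and length correction.

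**Figure D4:**
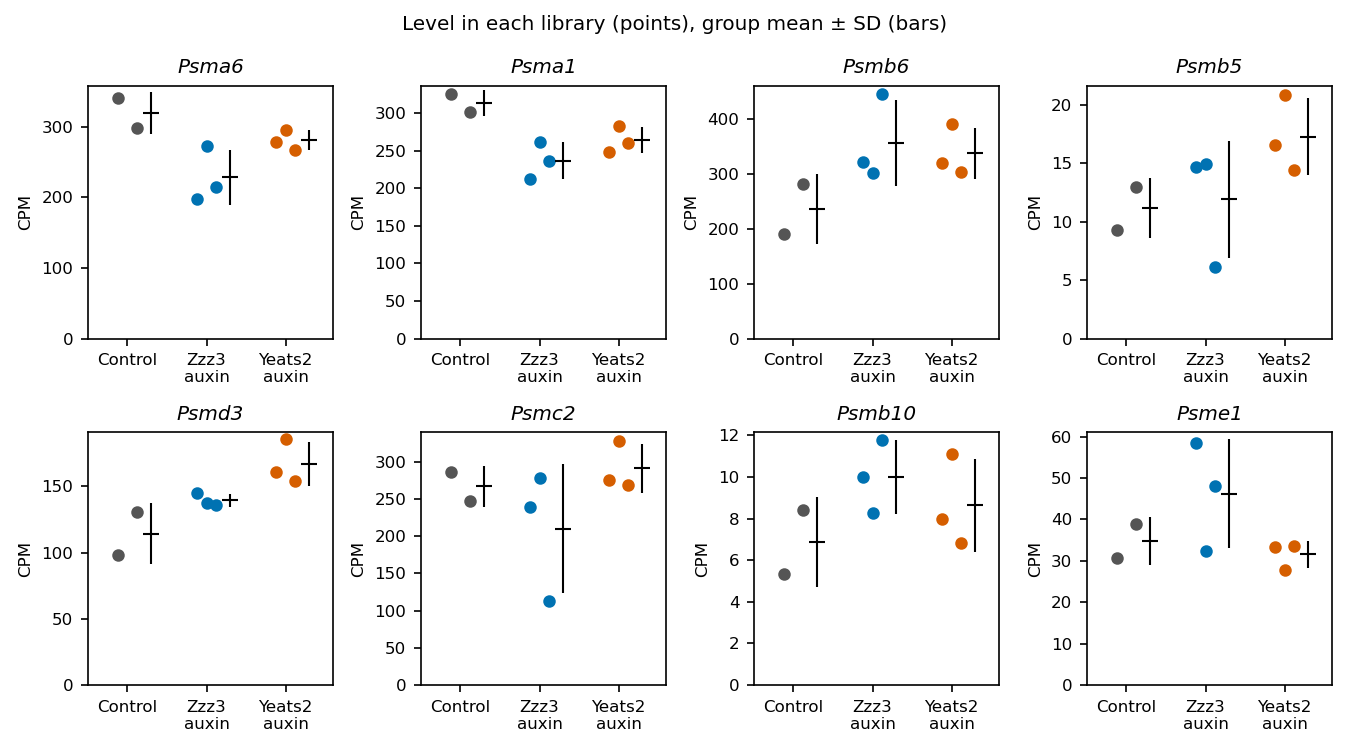
CPM (y axis, from 0) of 8 members in each library (points) by group, with the group mean and SD beside them (n = 2 for Control, 3 for each auxin group). Psma6 and Psma1 lie below both controls and Psmb6 and Psmd3 above them in every auxin library, while Psmc2 (113 CPM) and Psmb5 (6.16 CPM) each have a low point in Zzz3 auxin.

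Zzz3 auxin replicate 3 stood apart in several cap genes. In this library 7 members were under 75% of the lowest of the other libraries, whereas 5.52% of all genes were. They were Psmc2, Psmc5, Psmd1, Psmd7, Psmd12, Psmb5 and Psme2b. Psmc2, an ATPase gene, had 113 CPM there and 239 to 329 CPM in the other libraries. Psmd7, a lid gene, had 77.1 CPM there and 157 to 212 CPM elsewhere. No other library had more than 2 such members. Without this library the log2 fold change of Psmc2 in Zzz3 auxin went from -0.34 to -0.03, and the median of the 19S cap went from -0.04 to 0.08. This library also had the fewest reads, and the part of its depth in these values was not tested.

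The largest difference between the depletions, by size, was in an activator gene. Psme1, the alpha subunit of the 11S activator, had 30.7 and 38.9 CPM in the control pair, 58.4, 32.3 and 48.1 CPM after ZZZ3 depletion and 33.4, 27.7 and 33.6 CPM after YEATS2 depletion. The Zzz3 auxin libraries were spread widely, and 1 of them overlapped the other groups. In Yeats2 auxin against Zzz3 auxin the log2 fold change was -0.55 (SE 0.20, unadjusted p = 0.0159, edgeR adjusted p = 0.779). Its partner Psme2, much of whose sequence is shared with Psme2b, differed by 0.07 (SE 0.16, edgeR adjusted p = 0.94). Psme3, the nuclear 11S activator, had a difference of -0.03 (SE 0.12, edgeR adjusted p = 0.969), and Psme4 of 0.25 (SE 0.13, edgeR adjusted p = 0.779).

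Psmg3, a chaperone of alpha ring assembly, had 13.1 and 12.9 CPM in the control pair, 9.75, 10.8 and 13.4 CPM after ZZZ3 depletion and 14.9, 18.1 and 14 CPM after YEATS2 depletion. The 2 auxin groups did not overlap, with a log2 fold change of 0.47 (SE 0.16, unadjusted p = 0.0143, edgeR adjusted p = 0.779) between them. Psmd5, a chaperone of the base, had 184 and 178 CPM in the control pair, 114, 159 and 156 CPM after ZZZ3 depletion and 144, 153 and 150 CPM after YEATS2 depletion. All auxin libraries were below both controls, with log2 fold changes of -0.34 (SE 0.14, edgeR adjusted p = 0.198) and -0.28 (SE 0.14, edgeR adjusted p = 0.381). Psmg2, a partner of Psmg1 in alpha ring assembly, had log2 fold changes of -0.22 and -0.25 (SE 0.13 each, edgeR adjusted p = 0.345 and 0.389).

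Between the depletions the members had a median log2 fold change of 0.08 in Yeats2 auxin relative to Zzz3 auxin, where all genes had -0.01. Without overlap, 3 members were higher and 1 lower, beside 5.25% and 5.82% of all genes. The 3 were Psmd3, Psmd13 and Psmg3, and the 1 was Psmd8. The medians were 0.03 for the core, 0.13 for the cap and 0.06 for activators and chaperones. Psmb5 (0.52, SE 0.29) and Psmc2 (0.47, SE 0.26) had larger values than most, and without Zzz3 auxin replicate 3 these were 0.22 for Psmb5 and 0.17 for Psmc2.

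The fold changes moved with the GC content of the exons. Across the 48 members the Spearman correlation between GC content and the log2 fold change was 0.684 after ZZZ3 depletion and 0.502 after YEATS2 depletion, and across all genes it was 0.45 and 0.39. The members share the same libraries, so these are descriptions. The 24 members with a GC content under 49.7%, the median of the members, had a median log2 fold change of -0.18 in Zzz3 auxin, and the others 0.09. The alpha ring genes had a median GC content of 45% and the constitutive beta genes of 51%. After correction of each library for GC content and length the correlation was 0.173 and 0.0841, and the medians of the lower and the higher members in Zzz3 auxin were -0.01 and 0.04. The correction takes the trend with GC content out of each library, so a lower correlation follows from its design. A real difference that follows GC content would be taken out with it. The alpha ring median in Zzz3 auxin was then -0.22 and that of the constitutive beta ring 0.11. Psmb6 kept 0.57 and Psma6 -0.33, while Psma1 and Psmd5 had -0.22 each, Psmc6 -0.04 and Psmd3 0.07. After the same correction Psmd3 had 0.38 in Yeats2 auxin.

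**Figure D5:**
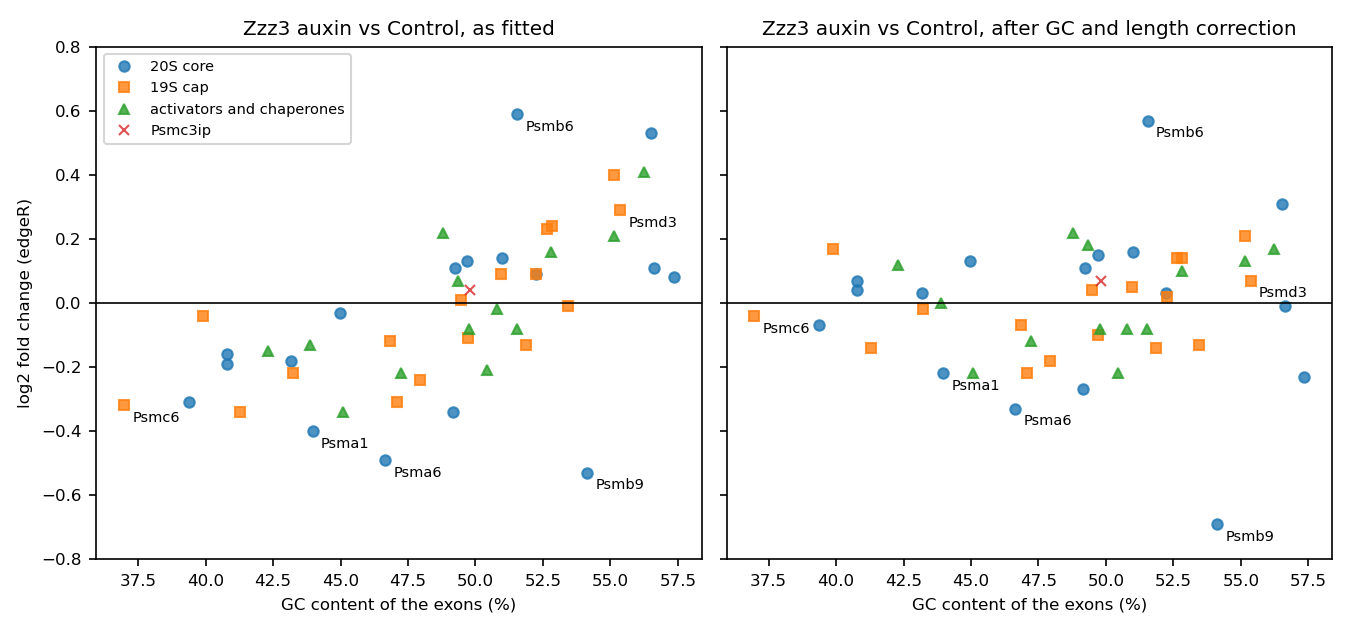
The log2 fold change in Zzz3 auxin against Control (y axis) against the GC content of the exons in percent (x axis) for the 48 members, as fitted (left) and after correction of each library for GC content and length (right); symbols mark the component. The slope seen on the left (Spearman 0.684) is mostly gone on the right (0.173), which follows from the design of the correction. On the right Psmb6 (0.57) and Psma6 (-0.33) still lie away from 0.

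Genes that work with the proteasome under other names gave 0 calls as well. Of 7 such genes, none was called by edgeR. At an unadjusted edgeR p under 0.05, 4 were lower in Zzz3 auxin and 2 in Yeats2 auxin, where 10.1% and 6.98% of all genes were. The 7 are a chosen list, and their values after the GC and length correction are not given here. Usp14, the deubiquitinase that rides on the cap, had 366 and 278 CPM in the control pair, 217, 247 and 140 CPM after ZZZ3 depletion and 257, 245 and 262 CPM after YEATS2 depletion, with a log2 fold change of -0.68 (edgeR adjusted p = 0.104) in the first. Its libraries were below both controls in either depletion. Pomp, the maturation factor of the core, had 161 and 157 CPM in the control pair, 110, 143 and 114 CPM after ZZZ3 depletion and 145, 161 and 137 CPM after YEATS2 depletion (log2 fold change -0.37 and -0.10, edgeR adjusted p = 0.149 and 0.76). Adrm1, a ubiquitin receptor of the cap, differed by 0.22 and -0.11 (edgeR adjusted p = 0.623 and 0.866), and both auxin groups overlapped the controls. Its Yeats2 auxin libraries all lay below its Zzz3 auxin libraries (log2 fold change -0.33, edgeR adjusted p = 0.779).

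Of the 9 genes on the NRF1 axis, none was called. Nfe2l1 was measured at 163 and 187 CPM in the control pair, 232, 209 and 166 CPM after ZZZ3 depletion and 219, 223 and 219 CPM after YEATS2 depletion. The Yeats2 auxin libraries were close together and above both controls (log2 fold change 0.33, edgeR adjusted p = 0.309), whereas Zzz3 auxin overlapped them (0.21, edgeR adjusted p = 0.417). None of the 13 genes of ubiquitin supply and shuttling, the 8 genes of the SCF ligase that Tir1 joins, the 9 COP9 signalosome genes or the 8 ESC markers was called in any comparison. Their smallest unadjusted edgeR p in Zzz3 auxin belonged to Rps27a (0.00739), Cdc34 (0.00951), Cops2 (0.00615) and Pou5f1 (0.00638).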

How the data were processed

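RNA-seq of 8 libraries was analysed. Per the labels the molecule is polyA RNA, whereas the extraction protocol describes a stranded total RNA kit with ribodepletion. The authors deposited 1 table of raw read counts per gene and library (mm10). The submitters' processing notes name STAR 2.5.3a, HTSeq 0.6.1p1, R 3.3.2 and DESeq2 1.16.1. The strand setting of the counting is not given in the sources used here, so reads of overlapping antisense genes may not be told apart. Gene IDs were matched to GENCODE M21 (55141 of 55401). Counts were tested with edgeR 4.0.16 (filterByExpr, TMM, robust quasi-likelihood F test, 1 fit of all 8 libraries, two-sided, Benjamini-Hochberg over 17532 genes). CPM are TMM-scaled. DESeq2 1.42.0 and limma 3.58.1 served as alternatives, and another fit corrected each library for GC content and exon length by lowess (span 0.3). The edgeR and DESeq2 fits of the comparisons with Control were tested on simulated data, and the other fits were not.

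The members and gene lists were chosen with earlier results of these data known. Genes named were the 3 largest rises and falls of each comparison, the catalytic, tissue-specific and activator genes, Psma7, Psmd4, Psmd14 and Psmc3ip; of other lists, genes called or with the smallest p, with Nfe2l1, Adrm1, Pomp, Zzz3 and Yeats2. Psma2, Psma3, Psma4, Psma5, Psmc3, Psmc5, Psmc6, Psmd1, Psmd7, Psmd8, Psmd9, Psmd12 and Psmd13 were named after their values were seen. Whether replicate numbers pair the libraries was left undecided. Correlations ran from -0.172 to 0.196 for same-numbered libraries and from -0.214 to 0.214 for the others. For any auxin library the values of the Control libraries are equal with opposite signs, so they cannot show whether numbers pair. Between the auxin groups the same-numbered values were 0.034, 0.049 and -0.033, beside -0.074 to 0.029 for the others. Counting intervals and p-values cover neither culture nor library preparation beyond these libraries.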

Additional observations from a re-analysis of the deposited data

How the results depend on the processing

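The counts of members called and the medians of the components were recomputed under 17 alternatives. In 45 of 51 cases the count of calls was the same, and in 189 of 204 cases the median moved by less than the SD between libraries. With Zzz3 auxin against Control the count of calls was 1 with DESeq2 (Psma6) and 2 without the filter on low counts (Psma6 lower, Psmb6 higher), and it ran from 0 to 1 when single libraries were left out, the 1 being Psma6 without Zzz3 auxin replicate 2. With Yeats2 auxin against Control it was 1 with DESeq2, 1 with limma-voom and sample quality weights (Psmd3 in both) and 2 without the filter (Psmb6 and Psmd3). In this comparison limma-voom called 388 genes in all, against 78 in the main fit. Without the filter more genes are tested, and edgeR called 1542 and 553 genes in all. In Zzz3 auxin edgeR called 841 genes in all without Zzz3 auxin replicate 2, against 132 in the main fit. With the replicate block 0 members were called in each comparison; it is not read as pairing.

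In Zzz3 auxin the median log2 fold change of all members was 0.04 with the replicate block and the GC and length correction together, that of the 20S core 0.06 and that of activators and chaperones 0.04. For activators and chaperones it was -0.02 with the replicate block alone and 0.00 with the GC and length correction alone. Between the depletions it was -0.01 with limma-voom. When single libraries were left out, the medians in Zzz3 auxin ran from -0.14 to -0.02 for the core, from -0.15 (without Zzz3 auxin replicate 2) to 0.08 (without Zzz3 auxin replicate 3) for the cap and from -0.10 to 0.03 for activators and chaperones. In Yeats2 auxin they ran from 0.01 to 0.14 for all members, the highest without Control replicate 2, and from -0.02 to 0.10 for activators and chaperones. Between the depletions they ran from 0.08 to 0.23 for the cap and from -0.03 to 0.10 for activators and chaperones. Among these, leaving out 1 library turned the sign for the cap in Zzz3 auxin and for activators and chaperones in all 3 comparisons. By moves smaller than the SD between libraries, the sign also turned for all members in Zzz3 auxin (-0.09 to 0.03). So it did for the core in Yeats2 auxin (-0.06 to 0.04) and between the depletions (-0.01 to 0.08). The cap in Yeats2 auxin ran from 0.10 to 0.20. The causes were not tested. Control replicate 1 was the lowest library for 15 of the 48 members, and so was Zzz3 auxin replicate 3, for 15 others. Of all genes they were the lowest for 22.8% and 21.3%. Control has 2 libraries, which limits what these data can resolve.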
